A study of Mus musculus with 9 samples.

Results

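Ion channels let ions cross a membrane down their gradient, and ion pumps spend ATP to build such gradients. The epithelium of the epididymis uses both to set the acidic, low-bicarbonate and potassium-rich fluid in which sperm mature: principal cells move chloride, bicarbonate, sodium and water, and clear and narrow cells secrete protons through the vacuolar proton pump. The genes described here are those of the deposited table whose symbol begins with the root of a channel or pump family (potassium, calcium, sodium and chloride channel families, anoctamins, tweety proteins, volume-regulated anion channel subunits, transient receptor potential, mucolipin and TMC channels, and the P-type and vacuolar ATPases). The rule found 37 genes of 2462. They comprise 14 potassium channel genes, 9 genes of chloride or other anion channels, 5 of transient receptor potential, mucolipin or TMC channels, 4 of voltage-gated calcium or sodium channel subunits, 1 subunit of the vacuolar proton pump and 4 lipid-flipping or related P-type ATPases. The rule also covers water channels, calcium release channels, the sodium-potassium pump and the calcium pumps, of which it found 0 genes in the deposited table. Their levels are therefore not known here.

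Messenger RNA of the caput, the first part of the epididymis, was sequenced in 9 libraries of 14-week-old mice, 3 per group. WT mice had the wild-type genotype and no treatment. EDL mice had the wild-type genotype and ligated efferent ducts, which keeps fluid and sperm of the testis out of the caput. W/Wv mice had that genotype, alleles of the dominant white spotting locus that leave the testis with few germ cells, and no treatment. The sources used here do not give how long after ligation the tissue was taken. No sham operation is named in the labels, so what surgery itself changed cannot be told apart from what the closed ducts changed. Whether each library is its own animal is not stated in the labels, so p-values here measure only how far these libraries spread. Levels are FPKM, fragments scaled to transcript length and library size, and can therefore be set side by side between genes. Folds are ratios of mean FPKM unless stated otherwise.

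The libraries held 3536248 to 4793226 reads in the table. Pairs of WT libraries differed more from each other than pairs of either model did (chi-square per gene 13.4 to 24.9 in WT, 3.14 to 7.34 in EDL and 4.87 to 6.65 in W/Wv). The median coefficient of variation of the channel and pump genes tested was 11.1% in WT, 6.81% in EDL and 9.14% in W/Wv. Of 19 principal cell markers of the caput, 9 could be read, and they did not move one way. In EDL 5 fell and 2 rose, with a median change of -1.10, and in W/Wv 6 fell and 2 rose, with a median of -1.08. Of all genes tested, 35.9% fell and 39.4% rose in EDL, and 35.0% fell and 35.3% rose in W/Wv. The median change of all genes tested was 0.05 in EDL and 0.02 in W/Wv. The secreted lipocalin Lcn8 had a mean of 17981 FPKM in WT, 3.66 after ligation and 2.55 in W/Wv. In the same order its relative Lcn5 had means of 702, 9752 and 8035 FPKM, and the secreted peroxidase Gpx5 26828, 26326 and 23125. The WT libraries of Lcn5 lay far apart, from 186 to 1613 FPKM. What these shifts in principal cell genes contribute to the channel and pump levels was not tested. Of 20 listed genes of sperm and testicular germ cells, 14 could be read. Their summed level was 144 to 150 FPKM in WT, 17.5 to 19.1 in EDL and 15.8 to 18.1 in W/Wv. Dkkl1 held most of the WT sum, with a mean of 81.9 FPKM. Odf2 held most of the sum in the models, with means of 13.4 after ligation and 12.6 for W/Wv. It was only 1.23-fold and 1.31-fold below WT, so the sums in the models mostly reflect this 1 gene. Of the 14, 10 were tested and 9 fell in each model, beside 35.9% of all genes in EDL and 35.0% in W/Wv. The exception, Catsperg1, was 3.25-fold higher with ligation and 2.02-fold higher in W/Wv. Prm1, Prm2, Tnp1, Tnp2, Smcp, Ldhc and Gapdhs reached 1 FPKM, the minimum for a test, only in WT and were therefore bound to differ. Among the 14, 5 were at 0 in every library of EDL, and 5 in every library of W/Wv. The mast cell genes Cpa3, Cma1 and Mcpt4 were at 0 in all W/Wv libraries. Their summed level was low in the other groups too, at 0.498 to 0.66 FPKM in WT and 0.628 to 0.823 in EDL. None (0) of them met the minimum for a test. Of the listed markers of smooth muscle, fibroblasts, endothelium, basal cells, macrophages and lymphocytes, 0 were in the deposited table, so these cell types could not be read. In whole tissue, fewer cells of a type cannot be told apart from less RNA per cell.

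A gene was tested where at least 3 libraries had 1 FPKM or more, which 30 of the 37 genes met. Of these, 4 met it only through some of the groups (Cacng1, Kcng4 and Tmc7 through the models, Kcnf1 through WT) and were therefore bound to differ. Changes are differences on the log2(FPKM + 1) scale from limma, with a Benjamini-Hochberg adjusted p over all 2013 genes tested and a threshold of 0.05. In EDL against WT, 29 of the 30 genes passed, beside 75.3% of all genes tested. Of these, 20 rose, beside 39.4% of all genes, and 9 fell, beside 35.9%. In W/Wv against WT, 29 passed as well, beside 70.3% of all genes, with 20 that rose, beside 35.3%, and 9 that fell, beside 35.0%. Changes of 2-fold or more were seen in 13 genes in EDL (9 rises and 4 falls on the log2 scale, beside 18.3% of all genes, 7.1% rises and 11.2% falls) and in 13 in W/Wv (10 rises and 3 falls, beside 16.8%, 6.56% rises and 10.3% falls). Libraries of EDL did not overlap those of WT in 29 of the 30 genes, beside 77.4% of all genes tested, and those of W/Wv did not in 30 of 30, beside 71.9%. The median change of the 30 genes was 0.44 in EDL and 0.54 in W/Wv, beside 0.05 and 0.02 for all genes tested.

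The same 20 genes rose and the same 9 fell in both models, which were compared with the same WT libraries. Their levels in each group follow, ordered by what the proteins do. The order of levels also differed between groups. In WT the most abundant of the 37 were Ano10 at 37.9 ± 2.69 FPKM and Cftr at 27.8 ± 2.13 (SD, n = 3), followed by Trpm4, Ttyh1, Atp13a2 and Ttyh3 between 13.5 and 14.8, whose libraries overlapped. In EDL, Ttyh3 led at 64.4 ± 0.944 FPKM, followed by Lrrc8c at 24.1 ± 1.94 and Kcnmb4 at 22.2 ± 1.78, which overlapped each other. In W/Wv, Ttyh3 led at 68.3 ± 7.94 FPKM, followed by Lrrc8c at 31.7 ± 0.984 and Ano10 at 24.7 ± 0.726.

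**Figure D1:**
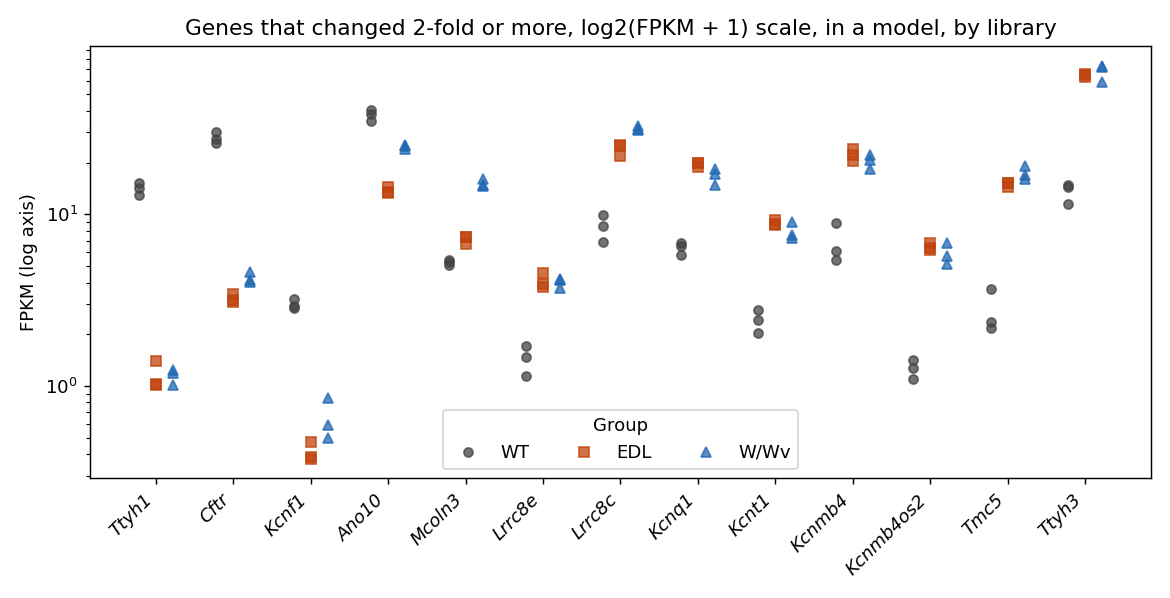
FPKM of every library on a log axis for 13 of the genes that passed the test and changed 2-fold or more, on the log2(FPKM + 1) scale, in EDL or W/Wv against WT, ordered from the largest fall to the largest rise in EDL. Points are single libraries (circles WT, squares EDL, triangles W/Wv), and for every gene the WT libraries lie apart from those of both models.

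Among the genes tested, anion channels held the largest falls. Cftr, the cyclic AMP-gated channel through which epithelia secrete chloride and bicarbonate (chromosome 6, 18170687 to 18322770, mm10), had 30.1, 27.3 and 25.9 FPKM in the WT libraries. It had 3.07, 3.42 and 3.18 FPKM in EDL, and 4.11, 4.63 and 4.02 in W/Wv. The 3 groups did not overlap: WT was high, EDL lowest, and W/Wv just above EDL. The mean was 8.62-fold lower in EDL (change -2.77, SE 0.07, limma adjusted p = 4.9e-11) and 6.53-fold lower in W/Wv (change -2.45, SE 0.07, limma adjusted p = 1.5e-10). Among all genes tested, this was the 47th largest fall in EDL and the 54th in W/Wv.

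Both tweety genes, whose products were first described as chloride channels, moved in opposite directions. Ttyh1 (chromosome 7, 4119530 to 4135407) had 15.2, 12.9 and 14.2 FPKM in WT, 1.03, 1.40 and 1.01 in EDL, and 1.24, 1.18 and 1.01 in W/Wv. Every model library was far below every WT library, and those of EDL and W/Wv overlapped. Its mean was 12.3-fold lower in EDL (change -2.82, SE 0.09, limma adjusted p = 3.2e-10) and 12.3-fold lower in W/Wv (change -2.81, SE 0.09, limma adjusted p = 3.3e-10). Ttyh3 (chromosome 5, 140620577 to 140649071) had 11.5, 14.4 and 14.8 FPKM in WT, 65.3, 64.5 and 63.4 in EDL, and 73.4, 59.1 and 72.3 in W/Wv. It rose 4.75-fold in EDL and 5.04-fold in W/Wv (limma adjusted p = 8.6e-09 and 6.9e-09), the 13th and the 9th largest rise of all genes tested. Within a library, Ttyh3 had 0.971 ± 0.192 times the level of Ttyh1 in WT, 57.4 ± 9.82 times in EDL and 60.2 ± 10.7 times in W/Wv. The summed level of both was 27.6 ± 1.19 FPKM in WT, 65.5 ± 0.989 in EDL and 69.4 ± 7.92 in W/Wv.

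Lrrc8c and Lrrc8e, subunits that join the obligatory subunit Lrrc8a in the volume-regulated anion channel, both rose. Lrrc8c (chromosome 5, 105519345 to 105613018) had 6.93, 8.52 and 9.84 FPKM in WT, 21.8, 25.4 and 25.0 in EDL, and 32.8, 31.3 and 31.0 in W/Wv, with no overlap between any groups. It rose 2.85-fold in EDL (change 1.42, SE 0.10, limma adjusted p = 2.4e-07) and 3.76-fold in W/Wv (change 1.81, limma adjusted p = 3.7e-08). Lrrc8e (chromosome 8, 4224268 to 4237470) was lower throughout, at 1.14, 1.71 and 1.47 FPKM in WT, 3.93, 4.56 and 3.79 in EDL, and 4.17, 4.16 and 3.70 in W/Wv. It rose 2.84-fold in EDL (change 1.06, SE 0.10, limma adjusted p = 1.7e-06) and 2.78-fold in W/Wv (change 1.04, SE 0.10, limma adjusted p = 2.1e-06), and its EDL and W/Wv libraries overlapped. Lrrc8c had 5.91 ± 0.865 times the level of Lrrc8e in WT, 5.91 ± 0.59 times in EDL and 7.92 ± 0.418 times in W/Wv.

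RefSeq promoter windows are shown for Cftr, Ttyh1, Ttyh3 and Lrrc8c, since these hold the largest falls and rises of the anion channels and a pair of relatives that moved apart. Each window runs from 250 bases before to 50 bases after the start site on the strand of the gene, in the GRCm38.p6 build that mm10 names. They are chr6:18170437-18170736 for Cftr (plus strand), chr7:4119280-4119579 for Ttyh1 (plus), chr5:140648982-140649281 for Ttyh3 (minus) and chr5:105519221-105519520 for Lrrc8c (plus). Capitals mark GC boxes, the letters GGGCGG on either strand.
Cftr: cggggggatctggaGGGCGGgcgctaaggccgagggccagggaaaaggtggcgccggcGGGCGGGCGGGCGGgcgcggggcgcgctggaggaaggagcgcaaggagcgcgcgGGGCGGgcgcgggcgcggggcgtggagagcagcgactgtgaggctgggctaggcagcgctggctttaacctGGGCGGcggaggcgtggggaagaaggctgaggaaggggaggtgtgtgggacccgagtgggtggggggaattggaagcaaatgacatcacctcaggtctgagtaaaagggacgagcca
Ttyh1: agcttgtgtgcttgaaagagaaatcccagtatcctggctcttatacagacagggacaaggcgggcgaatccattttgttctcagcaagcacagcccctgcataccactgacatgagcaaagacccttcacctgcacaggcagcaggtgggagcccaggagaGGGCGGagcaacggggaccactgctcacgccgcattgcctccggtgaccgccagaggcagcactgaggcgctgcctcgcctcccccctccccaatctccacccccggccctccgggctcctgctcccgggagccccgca
Ttyh3: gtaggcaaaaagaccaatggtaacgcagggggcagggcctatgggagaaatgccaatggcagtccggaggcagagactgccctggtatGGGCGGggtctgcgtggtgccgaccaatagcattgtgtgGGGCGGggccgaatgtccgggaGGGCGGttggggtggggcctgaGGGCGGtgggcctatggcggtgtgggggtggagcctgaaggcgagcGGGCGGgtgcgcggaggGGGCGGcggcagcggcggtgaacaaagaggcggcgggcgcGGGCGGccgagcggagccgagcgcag
Lrrc8c: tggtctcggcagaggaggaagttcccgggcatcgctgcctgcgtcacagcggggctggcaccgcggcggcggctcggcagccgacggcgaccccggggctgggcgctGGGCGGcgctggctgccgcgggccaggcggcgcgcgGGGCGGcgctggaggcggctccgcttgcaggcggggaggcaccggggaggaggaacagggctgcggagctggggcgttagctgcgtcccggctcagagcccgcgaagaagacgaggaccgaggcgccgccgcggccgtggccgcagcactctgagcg

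The window of Cftr held 6 GC boxes, some of them overlapping in a single run, Ttyh3 7, Lrrc8c 2 and Ttyh1 1. Cftr, which fell, and Ttyh3, which rose, thus both have several. Windows were found for 27 of the 37 genes, 29 windows in all, and 69.0% of them held a GC box, beside 35.7% of 32851 RefSeq windows and 46.2% of those of protein-coding genes. The letters AGGAAG, the PEA3 core of ETS factors, stood in 34.5% of the windows, beside 35.4% of all, with 2 in that of Cftr and 1 in those of Lrrc8c and Ano10. An androgen receptor half-site, AGAACA, was in 13.8% of windows, beside 19% of all, among them Ttyh1 and Kcnmb4. The cyclic AMP response element TGACGTCA was in 1 window, that of Tmc7 (3.45%, beside 1.79% of all), and none held the TATA box TATAAA, which 13.6% of all windows held. Both strands were searched, no hits of different motifs overlapped, and a match of letters is a description and not a binding site.

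Ano10, an anoctamin of inner membranes in a family of calcium-activated chloride channels and lipid scramblases (chromosome 9, 122175874 to 122294444), showed 3 separate levels. It had 40.4, 35.1 and 38.1 FPKM in WT, 13.3, 14.4 and 13.5 in EDL, and 24.9, 23.9 and 25.3 in W/Wv. WT was highest, EDL lowest, and W/Wv lay between them without overlap. The mean was 2.76-fold lower than WT in EDL (change -1.40, SE 0.06, limma adjusted p = 2.4e-09) and 1.53-fold lower in W/Wv (change -0.59, SE 0.06, limma adjusted p = 2.9e-06). Its relative Ano9 had 2.002, 2.18 and 2.01 FPKM in WT, 2.24, 2.06 and 2.58 in EDL, and 1.38, 1.88 and 1.93 in W/Wv. It was the only gene of the 30 that did not pass in EDL by limma (adjusted p = 0.35) or in W/Wv (adjusted p = 0.14), although all W/Wv libraries were below those of WT.

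Clcn2, a chloride channel of the ClC family opened by hyperpolarization, stood at 3.39 ± 0.256 FPKM in WT and rose 1.42-fold, to 4.8 ± 0.433, in EDL and 1.51-fold, to 5.14 ± 0.362, in W/Wv.

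**Figure D2:**
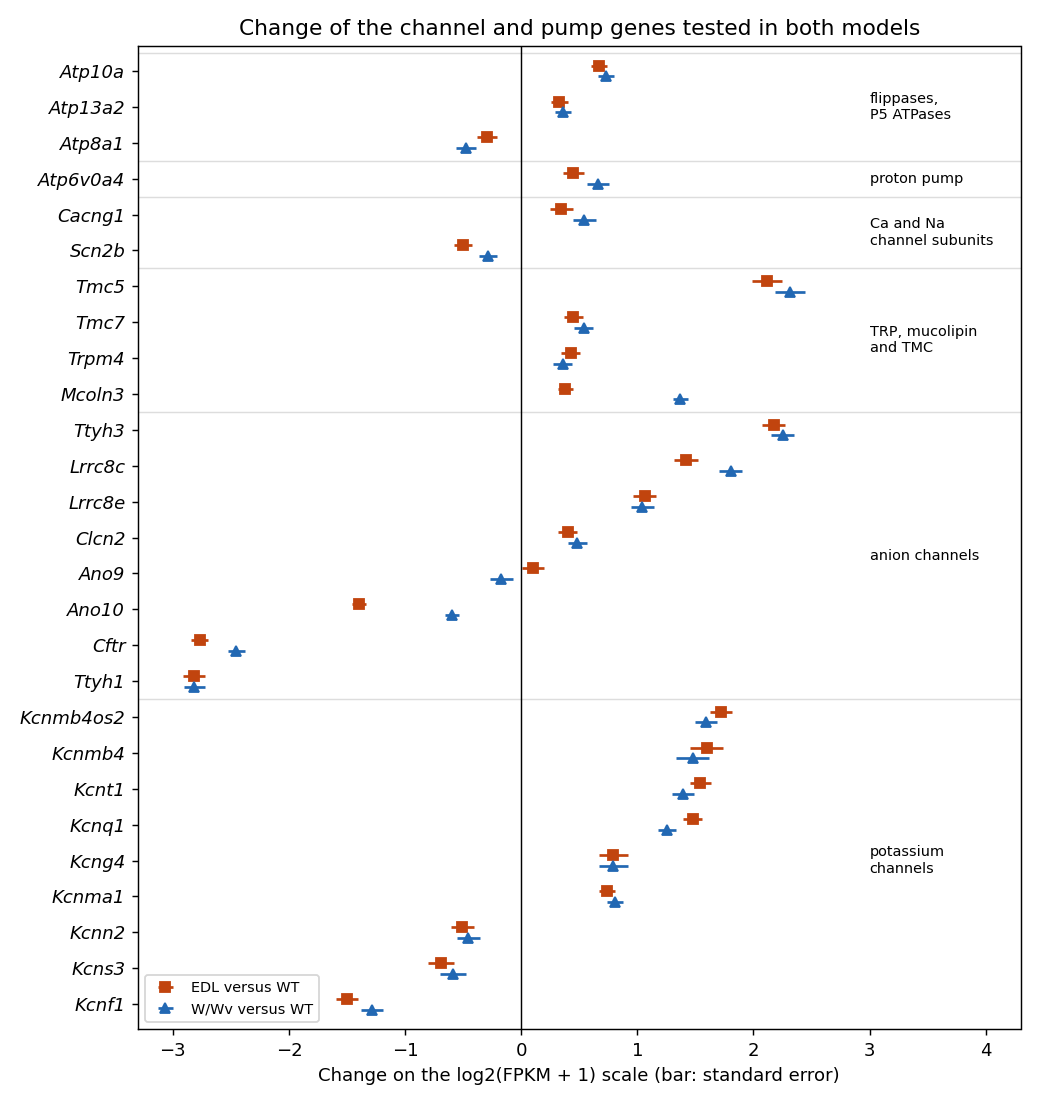
Change of 27 of the 30 genes tested, on the log2(FPKM + 1) scale, for EDL against WT (squares) and W/Wv against WT (triangles), with bars of 1 standard error, grouped by role. The potassium channel genes shown run from Kcnf1, at -1.50 in EDL, to Kcnmb4os2, at 1.72, and anion channel genes from Ttyh1, at -2.82, to Ttyh3, at 2.18. Both comparisons share the WT libraries.

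Of 14 potassium channel genes 10 were tested, and 7 rose and 3 fell in each model, beside 39.4% of all genes that rose and 35.9% that fell in EDL, and 35.3% and 35.0% in W/Wv. Of these, Kcng4 met the minimum for a test only through the models and Kcnf1 only through WT, so both were bound to differ. Among pore-forming subunits, Kcnt1, a potassium channel opened by sodium (chromosome 2, 25863791 to 25918273), had 2.77, 2.41 and 2.03 FPKM in WT, 9.30, 8.61 and 8.75 in EDL, and 7.52, 7.31 and 8.97 in W/Wv. It rose 3.7-fold in EDL and 3.3-fold in W/Wv (limma adjusted p = 4.5e-08 and 1.1e-07).

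Kcnq1, a voltage-gated channel that pairs with Kcne subunits in epithelia (chromosome 7, 143106877 to 143427050), had 6.84, 6.56 and 5.81 FPKM in WT, 19.9, 18.9 and 19.9 in EDL, and 18.2, 14.7 and 17.1 in W/Wv. The groups did not overlap, with EDL highest, a rise of 3.06-fold in EDL (change 1.48, SE 0.08, limma adjusted p = 1.6e-08) and 2.61-fold in W/Wv (change 1.254, limma adjusted p = 6.6e-08). Kcne2, an accessory subunit of Kcnq1, stayed below the minimum for a test at 0.411, 0.405 and 0.468 FPKM in WT, 0.809, 1.21 and 1.13 in EDL, and 0.631, 0.868 and 0.734 in W/Wv. All model libraries were above those of WT. Kcnq1 had 15.1 ± 2.33 times the level of Kcne2 in WT, 19.3 ± 4.76 times in EDL and 23.1 ± 5.98 times in W/Wv.

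The large-conductance calcium-activated potassium channel was represented by its pore and by accessory subunits that tune its gating. The pore gene Kcnma1 (chromosome 14, 23292288 to 24005110) had 2.095, 2.17 and 2.12 FPKM in WT, 4.25, 4.43 and 3.98 in EDL, and 4.81, 4.34 and 4.304 in W/Wv. It rose 1.98-fold in EDL (limma adjusted p = 1.9e-06) and 2.1-fold in W/Wv (limma adjusted p = 8.9e-07), and the models overlapped. The accessory gene Kcnmb4 (chromosome 10, 116417861 to 116473859) had 5.41, 6.07 and 8.92 FPKM in WT, 24.04, 20.49 and 22.1 in EDL, and 20.7, 18.3 and 22.03 in W/Wv. WT library 3 was the highest of WT and still below every model library, and the rise was 3.27-fold in EDL (change 1.60, SE 0.14, limma adjusted p = 3.8e-06) and 2.99-fold in W/Wv (change 1.48, limma adjusted p = 7.4e-06).

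Kcnmb4os2, a transcript of the opposite strand that the symbol rule also takes and that is no channel (chromosome 10, 116473163 to 116474987), shares 674 exon bases with Kcnmb4. It had 1.10, 1.27 and 1.42 FPKM in WT, 6.19, 6.39 and 6.83 in EDL, and 6.76, 5.10 and 5.73 in W/Wv, and rose 5.12-fold (change 1.72, SE 0.09, limma adjusted p = 1.9e-08) and 4.64-fold (change 1.59, SE 0.09, limma adjusted p = 4e-08). The libraries were stranded, but the sources do not state whether counting used the strand, so the reads of both genes cannot be told apart in the shared stretch. The other accessory subunit, Kcnmb2, which inactivates the channel, had 30 reads over the 3 WT libraries (0.245, 0.159 and 0.15 FPKM), none (0) over those of EDL and 1 over those of W/Wv. Taking 3 reads per group as the floor, EDL was at least 11-fold below WT. With 1 read, W/Wv was 28.7-fold lower than WT by reads scaled with the authors' factor per library, with an exact 95% interval from 4.77 to 1172 that covers counting error only.

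Kcnf1, Kcns3 and Kcng4 encode subunits that form no channel alone and modify the voltage-gated channels they join. Kcnf1 (chromosome 12, 17172100 to 17176888) had 3.22, 2.91 and 2.84 FPKM in WT, 0.47, 0.383 and 0.377 in EDL, and 0.495, 0.847 and 0.592 in W/Wv. All model libraries were below 1 FPKM, with those of W/Wv above EDL, and the mean was 7.29-fold lower in EDL (change -1.50, SE 0.09, limma adjusted p = 5.1e-08) and 4.64-fold lower in W/Wv (change -1.28, limma adjusted p = 2e-07). Kcns3 stood at 2.52 ± 0.38 FPKM in WT and fell to 1.17 ± 0.0501 with ligation and 1.35 ± 0.325 in W/Wv. Kcng4 rose from 0.341 ± 0.0748 FPKM to 1.34 ± 0.353 and 1.34 ± 0.313, so these silent subunits did not move one way.

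Kcnn2, a small-conductance channel opened by calcium, fell from 2.5 ± 0.199 FPKM to 1.47 ± 0.289 in EDL (limma adjusted p = 0.00056) and 1.55 ± 0.138 in W/Wv (limma adjusted p = 0.0013). Its relative Kcnn3 was not tested and had 0.11 to 0.22 FPKM in WT, 0.174 to 0.223 in EDL and 0.218 to 0.384 in W/Wv, ranges that overlap. The G protein-gated inward rectifier Kcnj3 was not tested either, at 0.198 to 0.36 FPKM in WT, 0.258 to 0.333 in EDL and 0.0994 to 0.289 in W/Wv, again with overlap.

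**Figure D3:**
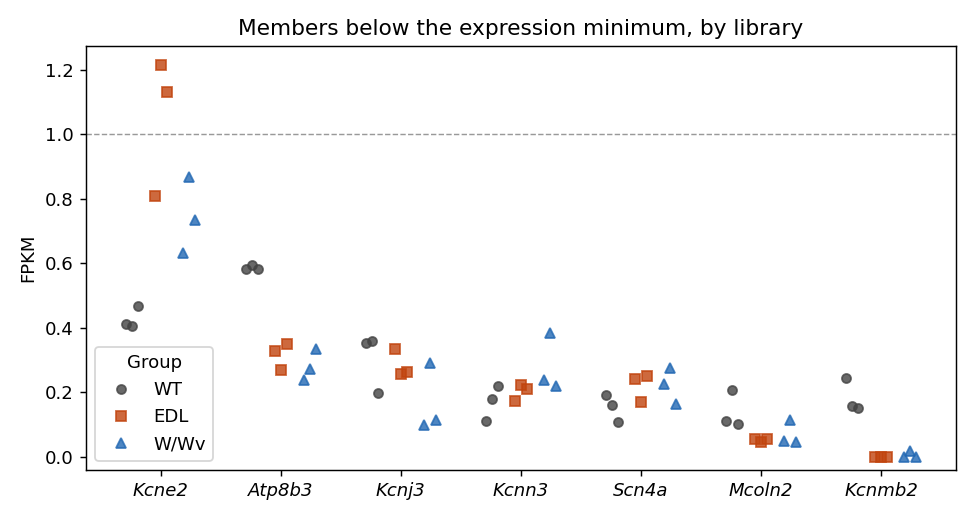
FPKM of every library on a linear axis for the 7 genes below the minimum for a test (dashed line, 1 FPKM in at least 3 libraries). Circles are WT, squares EDL and triangles W/Wv. Kcne2 lies higher and Atp8b3 and Kcnmb2 lie lower in all model libraries than in WT, and the ranges of Kcnj3, Kcnn3 and Scn4a overlap.

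All 4 tested cation channel genes of the transient receptor potential, mucolipin and TMC families rose in both models, beside 39.4% of all genes in EDL and 35.3% in W/Wv. Of these, Tmc7 met the minimum for a test only through the models. Tmc5, of the family that includes the mechanotransduction channel of hair cells (chromosome 7, 118597297 to 118675085), had 2.16, 2.36 and 3.66 FPKM in WT, 14.4, 15.2 and 15.1 in EDL, and 19.1, 15.9 and 16.9 in W/Wv. WT library 3 was the highest of WT and far below the models, and the rise was 5.47-fold in EDL (change 2.12, SE 0.13, limma adjusted p = 7.8e-08) and 6.35-fold in W/Wv (change 2.31, SE 0.13, limma adjusted p = 4.2e-08). Its neighbour Tmc7 (chromosome 7, 118535841 to 118584829) rose from 0.63 ± 0.00945 FPKM to 1.23 ± 0.0947 and 1.37 ± 0.173. Trpm4, a sodium and potassium channel opened by calcium (chromosome 7, 45303155 to 45334071), was the most abundant of this group in WT, with 14.95, 16.2 and 13.2 FPKM. It had 20.02, 20.47 and 19.9 FPKM in EDL and 19.8, 17.2 and 20.6 in W/Wv. The model libraries were all above WT, by 1.36-fold in EDL (limma adjusted p = 0.00043) and 1.3-fold in W/Wv (limma adjusted p = 0.0016).

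Mcoln3, a cation channel of endosomes and lysosomes (chromosome 3, 146093277 to 146141808), had 5.08, 5.43 and 5.25 FPKM in WT, 6.68, 7.40 and 7.36 in EDL, and 14.8, 16.1 and 14.7 in W/Wv. EDL lay a little above WT and W/Wv far above both, a rise of 1.36-fold in EDL (change 0.38, SE 0.06, limma adjusted p = 0.00017) and 2.89-fold in W/Wv (change 1.37, SE 0.06, limma adjusted p = 4.9e-09). Its relative Mcoln2, the next gene on the chromosome (146149796 to 146195514), was not tested. It had 0.112, 0.207 and 0.102 FPKM in WT, 0.0564, 0.0452 and 0.0566 in EDL, and 0.0483, 0.113 and 0.0456 in W/Wv.

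Scn2b, an accessory subunit of voltage-gated sodium channels (chromosome 9, 45117876 to 45130070), was the most abundant of the calcium and sodium channel genes, with 7.602, 7.24 and 6.6 FPKM in WT, 4.63, 4.45 and 5.19 in EDL, and 5.29, 6.204 and 5.57 in W/Wv. WT was highest and the models, which did not overlap, were lower, by 1.5-fold in EDL (change -0.50, SE 0.08, limma adjusted p = 0.00013) and 1.26-fold in W/Wv (change -0.29, SE 0.08, limma adjusted p = 0.0069). The pore gene Scn4a, known from skeletal muscle, was not tested and had 0.109 to 0.192 FPKM in WT, 0.17 to 0.25 in EDL and 0.163 to 0.275 in W/Wv. Cacng1, an accessory calcium channel subunit also known from skeletal muscle, had 0.476 ± 0.112 FPKM in WT and rose to 0.88 ± 0.222 with ligation and 1.15 ± 0.0471 in W/Wv, and DESeq2 did not call the change in EDL (adjusted p = 0.076). Of 5 genes listed as nerve markers only 1, Uchl1, could be read, at 42.7 to 48.1 FPKM in WT, 5.53 to 5.61 in EDL and 6.79 to 7.24 in W/Wv. A single gene does not show how nerve content differed, and any part of nerve in the fall of Scn2b was not tested.

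The vacuolar proton pump was represented by Atp6v0a4, the membrane subunit of acid-secreting cells (chromosome 6, 38048483 to 38124586). Atp6v0a4 shares 259 exon bases with D630045J12Rik of the same strand, so reads of that stretch cannot be told apart. It had 2.597, 3.30 and 2.90 FPKM in WT, 3.82, 4.80 and 4.50 in EDL, and 4.90, 5.54 and 5.18 in W/Wv. The groups did not overlap, with W/Wv highest, and the rise was 1.49-fold in EDL (change 0.45, SE 0.09, limma adjusted p = 0.00085) and 1.78-fold in W/Wv (change 0.66, SE 0.09, limma adjusted p = 5e-05). Of 14 clear and narrow cell markers, which include this gene, 3 could be read and all 3 rose in both models, beside 39.4% and 35.3% of all genes. Their summed level was 14.7 to 21.4 FPKM in WT, 46.4 to 50.9 in EDL and 63.1 to 69.1 in W/Wv, most of it Car12, and the part of cell numbers was not tested.

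Of the P-type ATPases that move lipids or polyamines, Atp13a2, a lysosomal polyamine transporter, was the most abundant, with 14.37, 14.8 and 13 FPKM in WT, 18.5, 18.2 and 17 in EDL, and 18.1, 16.8 and 20.1 in W/Wv. All model libraries were above WT, by 1.27-fold in EDL (change 0.33, SE 0.07, limma adjusted p = 0.0014) and 1.31-fold in W/Wv (change 0.36, SE 0.07, limma adjusted p = 0.00082). Atp10a, a lipid flippase, rose from 4.34 ± 0.147 FPKM to 7.51 ± 0.269 and 7.85 ± 0.671. Atp8a1, a flippase of aminophospholipids, fell from 6.56 ± 0.789 FPKM to 5.17 ± 0.473 in EDL (limma adjusted p = 0.009) and 4.42 ± 0.127 in W/Wv (limma adjusted p = 0.00041). Tmem30a, the subunit that flippases of this kind need, fell from 71.1 ± 4.93 FPKM to 51.2 ± 2.34 and 51.1 ± 2.99. Atp8b3, a flippase of the sperm head in mice, was not tested and had 0.583, 0.595 and 0.581 FPKM in WT, 0.328, 0.27 and 0.349 in EDL, and 0.237, 0.271 and 0.335 in W/Wv. All model libraries were below WT, as was the sum of the sperm markers given above, although Catsperg1 among them rose. The part of sperm in the level of Atp8b3 was not tested.

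Set against each other directly, the models differed in 4 of the 30 genes (13.3%), a share close to the 14.0% of all genes tested. All 4 were higher in W/Wv, beside 6.95% of all genes. None (0) reached 2-fold on the log2(FPKM + 1) scale, beside 0.596% of all genes, 0.199% higher and 0.397% lower. Ano10 was 1.8-fold higher in W/Wv (change 0.80, SE 0.06, limma adjusted p = 1.2e-05) and Mcoln3 2.12-fold higher (change 0.99, SE 0.06, limma adjusted p = 6.3e-06). They ranked 13th and 6th among the largest rises of all genes tested, and both calls held under all 20 alternatives. Cftr was 1.32-fold higher (change 0.31, SE 0.07, limma adjusted p = 0.016), and Lrrc8c 1.32-fold higher (change 0.39, SE 0.10, limma adjusted p = 0.027). Both of these calls depended on single libraries: without EDL library 1, Cftr had an adjusted p of 0.064 and Lrrc8c of 0.11. On the recovered reads, edgeR and DESeq2 each called 6 genes higher in W/Wv, adding Kcnf1 (adjusted p = 0.033 and 0.02) and Scn2b (adjusted p = 0.034 and 0.038).

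None (0) of the 30 genes was lower in W/Wv by limma at the adjusted threshold, beside 7.0% of all genes, while 3 were at an unadjusted p under 0.05 (Ano9 and Kcnq1 among them), and edgeR and DESeq2 each called 1. Kcnq1 was 1.17-fold lower (change -0.22, SE 0.08, limma adjusted p = 0.086), with no overlap of libraries. In all, 12 of the 30 genes had no overlap between W/Wv and EDL, beside 38.7% of all genes tested. For Ttyh1 the direct change was 0.00 with a standard error of 0.09, and for Ttyh3 0.08 with a standard error of 0.10.

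**Figure D4:**
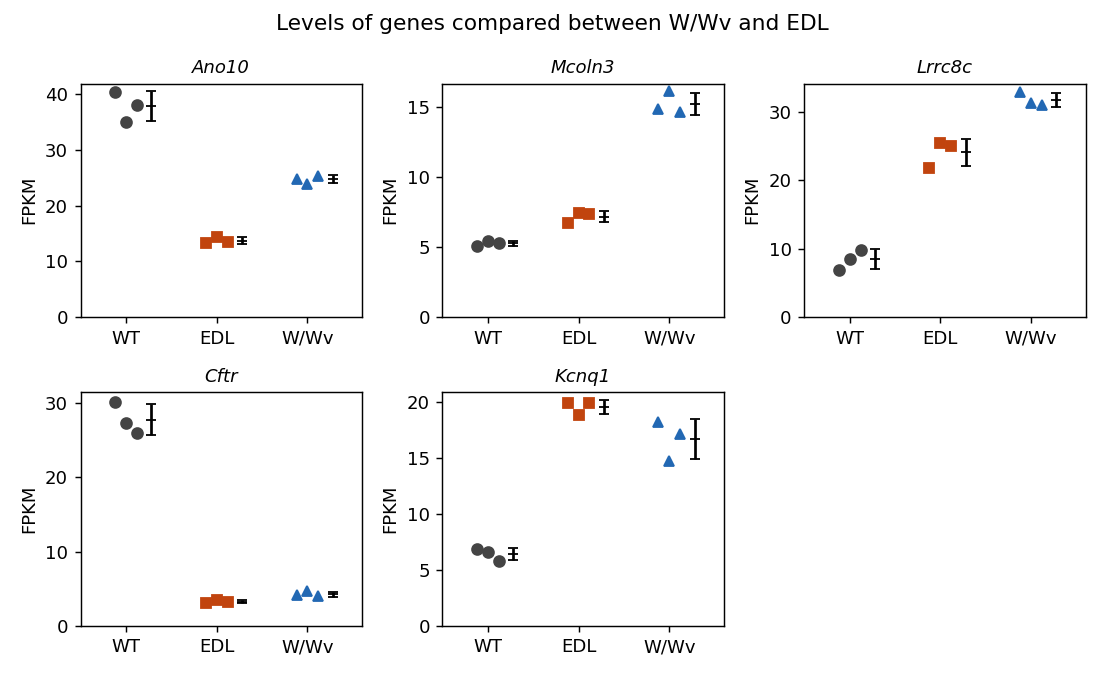
FPKM of each library on linear axes from 0 for the 4 genes that differed between W/Wv and EDL (Ano10, Mcoln3, Lrrc8c and Cftr) and for Kcnq1, which did not pass. Symbols are libraries, and the bar beside them is the mean with 1 SD. Ano10 in W/Wv lies between EDL and WT, while Mcoln3 and Lrrc8c in W/Wv lie beyond EDL on the side away from WT.

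Partners of these channels and pumps were taken from lists that do not belong to the rule. Of all genes tested, 39.4% rose and 35.9% fell in EDL, and 35.3% rose and 35.0% fell in W/Wv, which is the background for each of these lists. Of 48 acid-base and fluid transport genes 9 were tested; 6 rose and 2 fell in EDL, and 7 rose and 2 fell in W/Wv. Slc4a4, a sodium bicarbonate cotransporter, fell from 27.9 ± 3.53 FPKM to 7.47 ± 0.26 and 8.25 ± 0.282. Carbonic anhydrase Car12 rose from 11.6 ± 3.33 FPKM to 36.6 ± 1.85 and 52.4 ± 2.88, and the exchanger Slc9a2 from 11 ± 1.4 to 21 ± 0.819 and 19.8 ± 0.244. The median change of the 9 was 0.47 in EDL and 0.41 in W/Wv.

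Of 39 genes of cyclic AMP signalling, which opens Cftr, 9 were tested. In EDL 6 fell, 1 rose and 2 did not pass, and in W/Wv 6 fell, 2 rose and 1 did not pass, with a median change of -0.47 and -0.42, beside 0.05 and 0.02 for all genes tested. The catalytic subunit Prkacb fell from 75.7 ± 1.11 FPKM to 39.4 ± 1.95 and 45.3 ± 2.14, and Adgrg2, an adhesion receptor that in mouse efferent ducts acts with Cftr, from 825 ± 51.4 to 268 ± 15.7 and 244 ± 16. The regulatory subunit Prkar1a fell from 92.8 ± 3.48 FPKM to 66.6 ± 0.535 and 68.9 ± 0.0761. Pde3b fell from 8.99 ± 0.37 FPKM to 4.52 ± 0.428 and 5.97 ± 0.225. Pde4d fell from 2.52 ± 0.0223 FPKM to 1.38 ± 0.173 and 1.33 ± 0.118, while Pde7a rose from 3.68 ± 0.0854 to 5.84 ± 0.212 and 5.13 ± 0.193. These Pde genes encode enzymes that break down cyclic AMP. What these changes do to cyclic AMP was not tested. Of 52 regulators of channels and pumps 5 were tested, of which 2 rose and 2 fell in each model, shares close to the background. The kinase Wnk4, which regulates chloride and potassium transport, rose from 3.05 ± 0.18 FPKM to 8.75 ± 0.302 and 8 ± 0.187. Nedd4l, a ubiquitin ligase that removes channels from the membrane, rose from 13.7 ± 0.626 to 24.5 ± 1.08 and 24 ± 0.222. The 2 that fell were Tmem30a, given above, and Oxr1, from 89.6 ± 9.15 FPKM to 51.2 ± 3.23 and 52.4 ± 1.35.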

How the data were processed

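Poly-A RNA was sequenced from stranded libraries, per the labels' protocols. The build is mm10, per the submitters' processing notes, which also name Cufflinks 2.2.1 and TopHat2 2.1.1 without saying what each did. The sources say nothing of annotation, filters, strand setting or how the 2462 genes were picked. Per the file headers, the authors deposited FPKM values, called normalized, for each library, beside a normalized count, a signal that equals reads times 1 factor per library. Whole reads were recovered from it: 98.8% to 99.0% of values came out whole within 0.1 of a read.

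Tests used limma 3.58.1 (trended, robust; R 4.3.3) on log2(FPKM + 1), all 9 libraries in 1 fit, for 2013 genes with 1 FPKM or more in at least 3 libraries, with Benjamini-Hochberg adjustment. This scale understates changes of low genes. Recovered reads were also tested with edgeR 4.0.16 and DESeq2 1.42.0, alternatives chosen after seeing the data. On simulated data for EDL against WT (1959 genes), limma recovered 85.1% of changes at 1.5-fold and 95.9% at 2-fold, and called 7 of 1770 genes simulated without a change. The simulation gave all genes and groups the same dispersion and changed few genes. In the data WT libraries spread more than the models and 75.3% of genes passed in EDL, so these rates need not hold there. All 37 genes matched the GRCm38.p6 gene table by identifier, and 13 share exon bases with another gene in GENCODE. Among them are Kcnma1 (1016 bases), Ttyh1 (244), Cftr (129) and Kcnq1 (121), each with a gene of the opposite strand. Atp6v0a4 shares 259 bases with D630045J12Rik of the same strand, where counting by strand would not separate the reads either. The limit given for Kcnmb4, that reads of a shared stretch cannot be told apart, holds for these too. The rule for named genes took those that passed with a change of 1 or more and the most abundant of each role. Values of a few single genes are not reported here, though counts include them. The members and lists were chosen with earlier results of these data known. Alternatives were pseudocounts of 0.1 and 0.5, no filter, a minimum of 5 FPKM, scaling by median ratios or quantiles, fits restricted to the pair of groups, a replicate block, untrended non-robust limma, and each library left out in turn. Plots were drawn with matplotlib 3.10.9.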

Additional observations from a re-analysis of the deposited data

How the results depend on the processing

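Against WT, every change of the 30 genes kept its direction and its side of the threshold in W/Wv under each of the 20 alternatives that tested it (589 of 589 values, since only 19 genes meet a minimum of 5 FPKM), and in EDL all did except Cacng1 with DESeq2 (log2 change 0.83, adjusted p = 0.076). The minimum of 5 FPKM gave 5 genes lower than WT in EDL and 5 in W/Wv. The count of genes higher in W/Wv than in EDL ran from 2 to 4 when single libraries were left out, and was 2 without EDL library 1, EDL library 3 or W/Wv library 2, and 6 with edgeR and with DESeq2. The count of genes lower in W/Wv ran from 0 to 2 (1 without WT library 1 or 2, and 2 without WT library 3), and was 1 in a fit of only both groups, with edgeR and with DESeq2. Lrrc8c lost its call in W/Wv against EDL without any 1 of the EDL or W/Wv libraries (adjusted p up to 0.11), and Cftr without EDL library 1 or 3 or W/Wv library 2 (up to 0.064). Direct differences near 0 changed sign when single libraries were left out, over the ranges -0.12 to 0.096 (Kcng4), -0.018 to 0.14 (Kcnn2), -0.042 to 0.084 (Ttyh1), -0.064 to 0.044 (Lrrc8e), -0.035 to 0.087 (Atp13a2), -0.12 to 0.0036 (Trpm4) and -0.0045 to 0.10 (Atp10a), none of them called. Ttyh1 was -0.026 with edgeR and -0.029 with DESeq2. The cause was not tested.

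The replicate block gave 20 genes higher and 9 lower in each model against WT and 4 higher in W/Wv than in EDL, and changed no call among these genes. Same-numbered libraries did not deviate together (correlations from -0.34 to 0.08), so the numbers do not pair them. The median change of all genes in EDL was 0.02 with median-ratio and 0.12 with quantile scaling. With no minimum, 21 of the 37 genes were higher and 11 lower than WT in each model. Of the 7 genes under the minimum, Kcne2 (adjusted p = 0.00029 in EDL and 0.013 in W/Wv), Atp8b3 (0.0013 and 0.00057) and Kcnmb2 (0.00092 and 0.0013) passed there by limma, and the other 4 did not pass at this depth.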
